A study of Mus musculus with 8 samples.

Results

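The 33 genes described here carry macrophage sterol balance. They hold 18 enzymes of cholesterol synthesis, 5 genes of sterol sensing and transport, 7 genes of sterol efflux driven by liver X receptors (LXR), and 3 genes of SREBP-1 and fatty acid synthesis. They were chosen by name and role from the 22165 genes of the count table, with earlier results of these data known. All 33 were found by symbol and all 33 passed the filter on low counts, which left 11079 genes for testing. RNA came from macrophages grown out of C57BL/6 mouse marrow over 7 days with M-CSF, a macrophage growth factor. The 4 groups were Nrf2-/- cells given 250 µM dimethyl itaconate (DI) for 12 h, wild-type cells given the same treatment, untreated Nrf2-/- cells and untreated wild-type cells. Each group had 2 libraries. Nrf2-/- cells lack NRF2, the transcription factor of the antioxidant response, and their donors were bought from the Jackson Laboratory. DI is a membrane-permeable, electrophilic derivative of itaconate, and the series title links it to electrophilic stress and to inflammation mediated by IκBζ. The labels do not say whether the 2 libraries of a group stand for different mice or cultures, nor whether the wild-type mice were littermates, so p-values measure the spread between these libraries only, which may be technical.

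Cholesterol is built from acetyl-CoA through mevalonate, squalene and lanosterol. When membrane sterol is low, SCAP escorts the SREBP transcription factors out of the endoplasmic reticulum, and they switch on the synthesis enzymes. INSIG proteins hold SCAP back when sterol is plentiful. In the opposite state, oxysterols and late synthesis intermediates activate LXR, which raises the exporters ABCA1 and ABCG1, the lipoprotein APOE, and MYLIP (IDOL), a ubiquitin ligase that removes lipoprotein receptors and so limits uptake. Macrophages depend on efflux because they take in whole cells and lipoproteins and cannot break down the sterol ring.

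The libraries held 5554288 to 15680671 counts, of which the 33 genes took 27115 to 112908. Levels are given as CPM, counts scaled to the TMM-adjusted library size, and 1 count was worth 0.0647 to 0.175 CPM. Synthesis genes were sparsely counted, with 1030 to 3703 counts per library over all 18 enzymes, against 25419 to 107357 over the 7 efflux genes. Intervals for single enzymes were therefore wide. The median standard error of a log2 fold change between groups was 0.38 to 0.40 for the enzymes and 0.25 for the efflux genes. Nfe2l2, which encodes NRF2, had 67.7 and 88.1 CPM in Nrf2-/- DI libraries, 299 and 416 CPM in wild-type DI libraries, 40.2 and 53.0 CPM in untreated Nrf2-/- libraries and 230 and 454 CPM in untreated wild-type libraries. It was lower in each Nrf2-/- library, and whether its 3′ reads lie in the deleted part is not known. All 8 macrophage markers were counted, with summed levels of 3916 to 4472 CPM in Nrf2-/- DI, 4646 to 5051 CPM in wild-type DI, 5879 to 6045 CPM in untreated Nrf2-/- and 4902 to 5249 CPM in untreated wild-type libraries. Summed markers of other marrow cells reached 358 CPM for neutrophils (7 of 7 markers counted), 128 CPM for stromal cells (4 of 5 counted, Lum at 0), 2.33 CPM for lymphocytes (5 of 5), 0.961 CPM for mast cells and basophils (3 of 3) and 0.699 CPM for erythroid cells (1 of 4). In these bulk samples fewer cells of a type and less RNA per cell cannot be told apart.

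Promoter windows from the RefSeq table of mouse promoters (GRCm38.p6, the assembly also called mm10) matched 27 of the 33 genes. Each window runs from 250 bases before an annotated start to 50 bases after it, and a gene can have several. Both strands were searched for the sterol response element TCACNCCAC bound by SREBP, the CCAAT box CCAAT bound by its partner NF-Y, the direct repeat bound by LXR and the antioxidant response element TGACNNNGC bound by NRF2. A CCAAT box was present in 14 of 15 synthesis enzymes with a window, Acat2 being the exception, and in 2 of 6 efflux genes, Mylip and Lpcat3. It was present in 37.4% of all 32851 windows and in 42.9% of 8802 tested genes with a window. The sterol response element matched Hmgcs1 among the 27 genes, 1.34% of tested genes with a window and 1.24% of all windows. The antioxidant element matched 4 of the 27 genes (14.8%), Mvk, Pmvk, Hsd17b7 and Dhcr7, against 17% of tested genes with a window and 12.4% of all windows. The LXR repeat matched none of the 27 genes and 0.0152% of all windows. No match of one motif overlapped a match of another in the windows of these genes. Matches of such letter strings, or their absence, are a description of the sequence only.

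The bases before the start are shown for Hmgcs1, the 1 gene whose window matched the letters searched for the sterol element. They are also shown for Idi1, a mevalonate enzyme with its 2 highest levels in the Nrf2-/- DI libraries. Nsdhl, Dhcr7 and Mylip, which passed a test below, are shown as well. All lie on the plus strand and are given 5′ to 3′. Capitals mark CCAAT boxes (CCAAT or its reverse complement ATTGG), the sterol element in Hmgcs1 and the antioxidant element in Dhcr7 (on the reverse strand).
Hmgcs1 (chr13:119690101-119690350): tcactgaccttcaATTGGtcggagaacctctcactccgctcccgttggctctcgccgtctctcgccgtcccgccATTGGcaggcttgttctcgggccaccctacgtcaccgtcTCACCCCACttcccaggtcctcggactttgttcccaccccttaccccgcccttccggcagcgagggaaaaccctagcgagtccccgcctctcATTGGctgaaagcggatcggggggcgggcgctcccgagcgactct
Idi1 (chr13:8885356-8885605): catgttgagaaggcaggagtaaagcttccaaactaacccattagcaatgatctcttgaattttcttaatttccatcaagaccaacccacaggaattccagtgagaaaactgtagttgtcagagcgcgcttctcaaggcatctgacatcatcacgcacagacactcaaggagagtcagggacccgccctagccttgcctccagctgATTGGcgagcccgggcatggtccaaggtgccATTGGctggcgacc
Nsdhl (chrX:72918271-72918520): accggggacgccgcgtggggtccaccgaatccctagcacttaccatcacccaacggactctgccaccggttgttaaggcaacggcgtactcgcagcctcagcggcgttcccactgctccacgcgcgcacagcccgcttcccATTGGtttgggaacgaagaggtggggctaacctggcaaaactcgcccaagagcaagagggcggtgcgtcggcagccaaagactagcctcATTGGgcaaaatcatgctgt
Dhcr7, at the third of 3 annotated starts (chr7:143829964-143830213): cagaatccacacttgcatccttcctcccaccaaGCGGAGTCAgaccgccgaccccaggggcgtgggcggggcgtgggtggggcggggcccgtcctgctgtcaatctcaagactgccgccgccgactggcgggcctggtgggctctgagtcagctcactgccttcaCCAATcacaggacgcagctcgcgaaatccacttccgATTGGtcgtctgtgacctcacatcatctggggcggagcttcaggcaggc
Mylip (chr13:45389492-45389741): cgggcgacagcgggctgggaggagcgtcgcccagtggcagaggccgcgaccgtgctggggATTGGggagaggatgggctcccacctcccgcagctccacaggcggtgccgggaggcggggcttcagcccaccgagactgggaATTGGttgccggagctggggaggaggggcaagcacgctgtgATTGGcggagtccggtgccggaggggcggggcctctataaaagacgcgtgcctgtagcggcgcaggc
The sterol element of Hmgcs1 begins 137 bases before the start. The CCAAT boxes nearest to the start begin 45 bases before it in Hmgcs1, 14 in Idi1, 20 in Nsdhl, 49 in Dhcr7 and 67 in Mylip, counting only the bases shown.

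**Figure D1:**
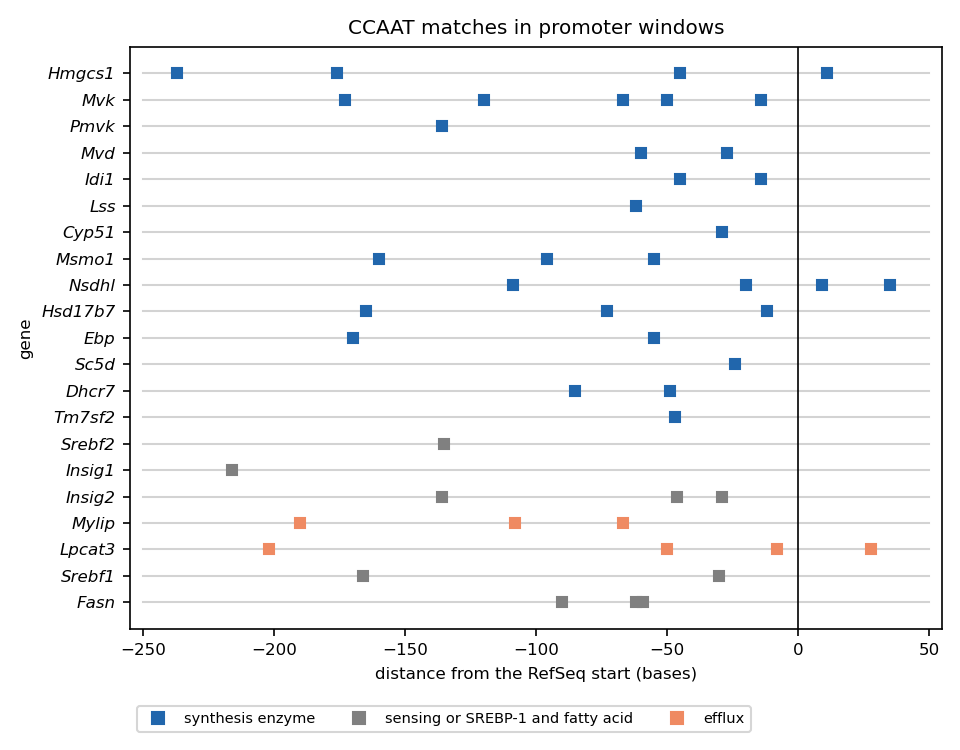
Position of CCAAT box matches (squares, either strand) relative to the RefSeq start at 0, in bases, for the 21 genes with at least 1 match. Blue marks synthesis enzymes, orange efflux genes and grey the other genes, and matches of a gene with several starts are placed relative to their own start. Of the synthesis enzymes with a window, 14 of 15 carry a match.

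Few of the 33 genes passed the test in any comparison. Genes were tested by edgeR's quasi-likelihood method, and p-values were adjusted by the Benjamini-Hochberg procedure across the 11079 genes, with a threshold of 0.05. In wild-type cells DI changed 2 of 33 genes, with Mylip higher and Nr1h3 lower, while 15.2% of all tested genes passed. In Nrf2-/- cells DI changed 1 of 33, with Dhcr7 lower, while 8.48% of all genes passed. Nrf2-/- DI cells differed from wild-type DI cells in 3 of 33 genes, Mylip, Apoe and Nsdhl, each lower, while 21.2% of all genes passed. Untreated Nrf2-/- cells differed from untreated wild-type cells in 0 of 33 genes by edgeR, while 0.605% of all genes passed. There 4 of the 33 had an unadjusted edgeR p under 0.05, against 10.6% of all genes, and DESeq2 called 1, Mylip, against 1.72% of all genes. The interaction, the DI effect in Nrf2-/- cells minus that in wild-type cells, passed for 0 of 33 by edgeR, while 7.55% of all genes passed. There 6 of the 33 had an unadjusted edgeR p under 0.05, against 26.4% of all genes, and DESeq2 called 1, again Mylip, against 10.8% of all genes. None of the counts of edgeR calls at the adjusted threshold stood above the share over all genes. The comparisons share libraries: each untreated or DI group enters several of them, so their values are set side by side and are not independent.

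**Figure D2:**
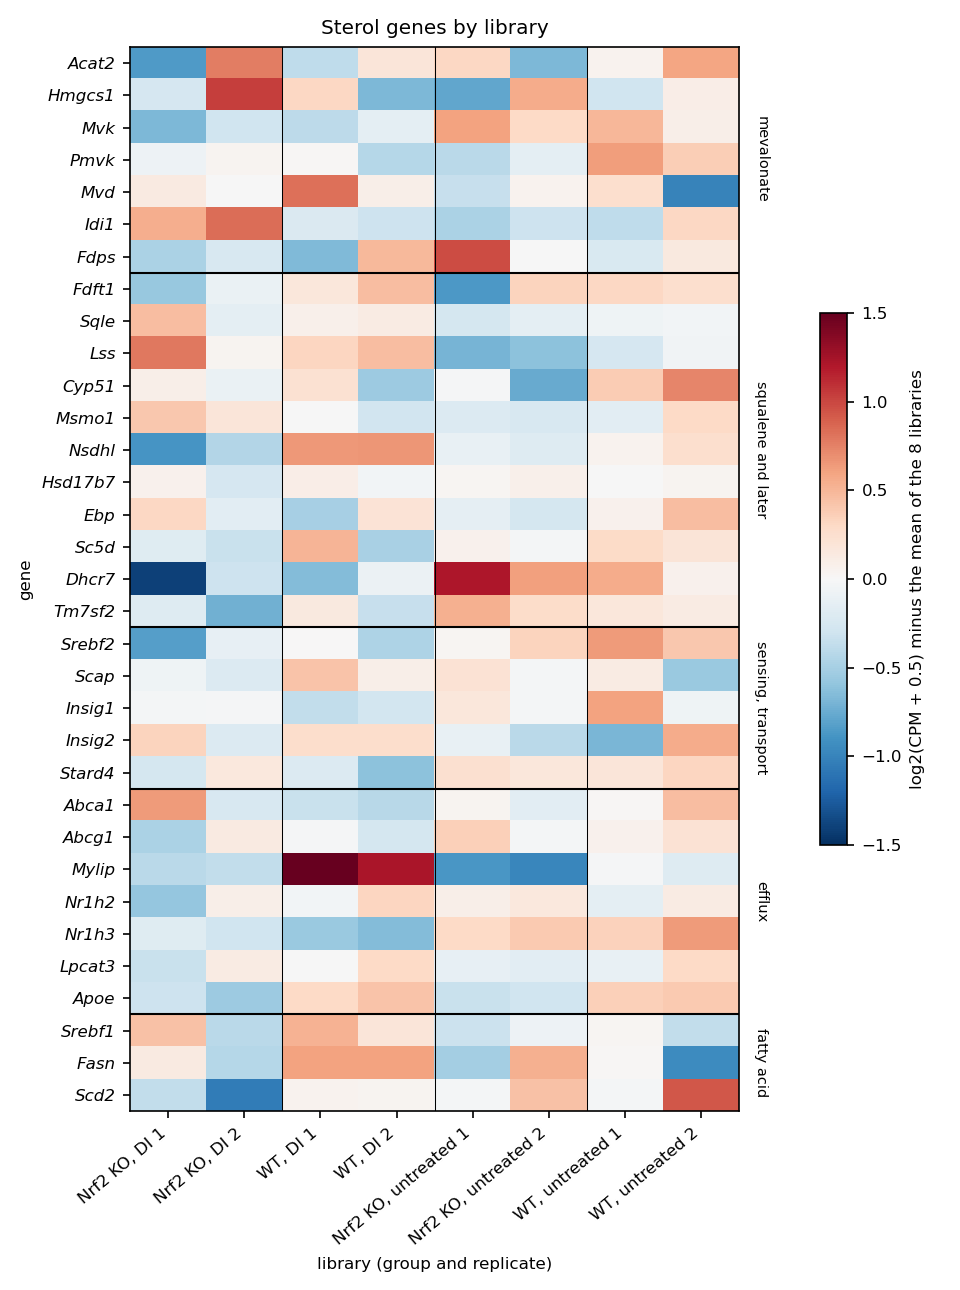
Level of each of the 33 genes in each of the 8 libraries, as log2(CPM + 0.5) minus the gene's mean over the libraries (colour, limited to 1.5 in either direction), with rows grouped by role. Mylip is deep red in the 2 wild-type DI libraries and blue in the 2 untreated Nrf2-/- libraries, Dhcr7 is red in the untreated and blue in the DI libraries of Nrf2-/- cells, and rows such as Hmgcs1 and Acat2 change colour between libraries of 1 group.

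Among the 7 mevalonate enzymes, with all 8 libraries and the filter on low counts, none passed in any of the 5 comparisons by edgeR or by DESeq2, which gave no adjusted p for the interaction of Acat2, Mvd and Fdps. By unadjusted edgeR p under 0.05 there were 0 in wild-type DI against untreated cells, 2 in Nrf2-/- DI against untreated cells, and 1 each in the interaction and in the comparisons of Nrf2-/- with wild type under DI and untreated. Over all genes the shares at that p were 30.8%, 26.4%, 26.4%, 36% and 10.6% for the same 5 comparisons. Idi1 makes the isoprenoid building block dimethylallyl diphosphate. It had 5.12 and 6.38 CPM in Nrf2-/- DI libraries, 2.83 and 2.61 CPM in wild-type DI libraries, 2.27 and 2.60 CPM in untreated Nrf2-/- libraries and 2.45 and 4.27 CPM in untreated wild-type libraries. Both Nrf2-/- DI libraries were above the other 6. Its log2 change with DI in Nrf2-/- cells was 1.22 ± 0.40 (edgeR adjusted p = 0.0781), and under DI it differed by 1.09 ± 0.39 between Nrf2-/- and wild-type cells (edgeR adjusted p = 0.0651). Neither passed, nor did the interaction at 1.55 ± 0.56 (edgeR adjusted p = 0.105). Without the filter on low counts, the DI change in Nrf2-/- cells passed with edgeR adjusted p = 0.0378.

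Hmgcs1, which condenses acetyl-CoA and acetoacetyl-CoA to HMG-CoA, varied widely between libraries of a group. It had 16.3 and 40.4 CPM in Nrf2-/- DI libraries, 24.3 and 12.0 CPM in wild-type DI libraries, 11.2 and 29.0 CPM in untreated Nrf2-/- libraries and 15.7 and 21.0 CPM in untreated wild-type libraries. The groups overlapped in every comparison. Its DI change was 0.48 ± 0.48 in Nrf2-/- and -0.04 ± 0.48 in wild-type cells on the log2 scale, with 95% intervals of -0.56 to 1.51 and -1.08 to 1.0. Mvk, mevalonate kinase, had 2.24 and 3.04 CPM in Nrf2-/- DI libraries and 6.12 and 4.88 CPM in untreated Nrf2-/- libraries. In wild-type cells the same gene had 2.83 and 3.45 CPM with DI and 5.68 and 4.14 CPM untreated. The DI libraries were below the untreated ones in both genotypes, but the log2 changes of -1.04 ± 0.37 in Nrf2-/- cells and -0.62 ± 0.36 in wild-type cells did not pass (edgeR adjusted p = 0.10 and 0.261). Pmvk, the next kinase, had 2.98 and 2.05 CPM in wild-type DI libraries and 4.81 and 3.95 CPM in untreated wild-type libraries, which did not overlap, and its log2 change of -0.82 ± 0.38 did not pass (edgeR adjusted p = 0.167). Acat2, Mvd and Fdps, which make acetoacetyl-CoA, isopentenyl diphosphate and farnesyl diphosphate, held 4 to 31, 4 to 15 and 5 to 27 counts per library. The standard errors of their log2 changes with DI were 0.61 to 0.82, so that changes of that size were not detectable at this depth.

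The 11 enzymes from squalene onward gave 1 call with DI and 1 between genotypes. Dhcr7, the reductase that makes cholesterol from its direct precursor (chromosome 7, 143823145 to 143848410), fell in Nrf2-/- cells with DI. It had 0.640 and 1.93 CPM in Nrf2-/- DI libraries and 6.47 and 4.12 CPM in untreated Nrf2-/- libraries, which did not overlap. The log2 change was -2.0 ± 0.53 (edgeR adjusted p = 0.0389), on 6 to 45 counts per library. In wild-type cells Dhcr7 had 1.41 and 2.33 CPM with DI and 3.93 and 2.65 CPM untreated, a log2 change of -0.76 ± 0.51 that did not pass (edgeR adjusted p = 0.343). The difference between the 2 DI effects did not pass either (interaction -1.25 ± 0.74, edgeR adjusted p = 0.302, 95% interval -2.86 to 0.37). The call in Nrf2-/- cells was kept in 7 of 14 alternative fits. It was lost without untreated Nrf2-/- replicate 1 or 2 (edgeR adjusted p = 0.222 and 0.0958), without Nrf2-/- DI replicate 1 (0.21) and without untreated wild-type replicate 1 or 2 (0.0535 and 0.0515). It was also lost with only the 4 Nrf2-/- libraries in the fit (0.0507) and with the A-rich trend removed (0.0644).

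Nsdhl, a dehydrogenase that helps strip methyl groups from lanosterol (chromosome X, 72918557 to 72958514), was lower in Nrf2-/- cells under DI. It had 2.78 and 3.95 CPM in Nrf2-/- DI libraries and 8.95 and 9.04 CPM in wild-type DI libraries. The log2 difference was -1.41 ± 0.31 (edgeR adjusted p = 0.00795). Untreated, it had 5.07 and 4.78 CPM in Nrf2-/- libraries and 5.77 and 6.66 CPM in wild-type libraries, a log2 difference of -0.34 ± 0.31 that did not pass (edgeR adjusted p = 0.774). The wild-type DI libraries were thus above the untreated wild-type ones, and the Nrf2-/- DI libraries below the untreated Nrf2-/- ones. Those DI changes, 0.53 ± 0.29 in wild-type and -0.54 ± 0.33 in Nrf2-/- cells, did not pass singly (edgeR adjusted p = 0.235 and 0.313), and neither did their difference at -1.07 ± 0.44 (edgeR adjusted p = 0.143). The genotype call under DI was lost in 1 of 14 alternative fits, that without Nrf2-/- DI replicate 1 (adjusted p = 0.0638).

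Other late enzymes did not pass. Lss, which closes squalene epoxide into lanosterol, had 6.30 and 3.55 CPM in Nrf2-/- DI libraries and 1.92 and 2.06 CPM in untreated Nrf2-/- libraries, which did not overlap, with a log2 change of 1.29 ± 0.41 (edgeR adjusted p = 0.074) that passed without Nrf2-/- DI replicate 2 and without the filter on low counts. In wild-type cells Lss had 4.40 and 4.94 CPM with DI and 2.80 and 3.30 CPM untreated, a log2 change of 0.61 ± 0.37 (edgeR adjusted p = 0.289). Sqle, squalene epoxidase, had 9.61 and 6.08 CPM in Nrf2-/- DI, 7.23 and 7.45 CPM in wild-type DI, 5.60 and 6.08 CPM in untreated Nrf2-/- and 6.47 and 6.60 CPM in untreated wild-type libraries. Its 95% interval for the DI change ran from -0.25 to 1.09 in Nrf2-/- cells and from -0.48 to 0.82 in wild-type cells on the log2 scale. Msmo1, a sterol methyl oxidase and the best counted enzyme (307 to 1179 counts per library), had 82.3 and 70.5 CPM in Nrf2-/- DI libraries and 53.7 and 52.4 CPM in untreated Nrf2-/- libraries. The log2 change of 0.53 ± 0.23 did not pass (edgeR adjusted p = 0.176). In wild-type cells Msmo1 had 61.9 and 50.7 CPM with DI and 55.4 and 76.3 CPM untreated, which overlapped.

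Cyp51, lanosterol demethylase, had 6.62 and 5.78 CPM in Nrf2-/- DI libraries, 7.38 and 4.10 CPM in wild-type DI libraries, 6.12 and 3.47 CPM in untreated Nrf2-/- libraries and 8.21 and 10.7 CPM in untreated wild-type libraries. The untreated wild-type libraries were the highest 2 of the 8. Untreated, the log2 difference between Nrf2-/- and wild-type cells was -1.02 ± 0.37 (edgeR adjusted p = 0.329). Hsd17b7, a keto-reductase of the same demethylation steps, lay between 8.71 and 11.3 CPM in all 8 libraries. Ebp and Sc5d, a sterol isomerase and a desaturase, ranged over 28.7 to 56.5 and 14.3 to 28.7 CPM. Tm7sf2, a sterol reductase, and Fdft1, squalene synthase, ranged over 1.32 to 3.85 and 1.05 to 3.35 CPM. Ebp, Sc5d, Tm7sf2 and Fdft1 passed no test in edgeR or DESeq2. Tm7sf2 overlaps Vps51 on its own strand, Fdps overlaps Gm43738 likewise, and Fdft1, Cyp51, Mvd, Lpcat3 and Srebf1 each overlap a counted gene on the other strand, so the division of reads there is uncertain.

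**Figure D3:**
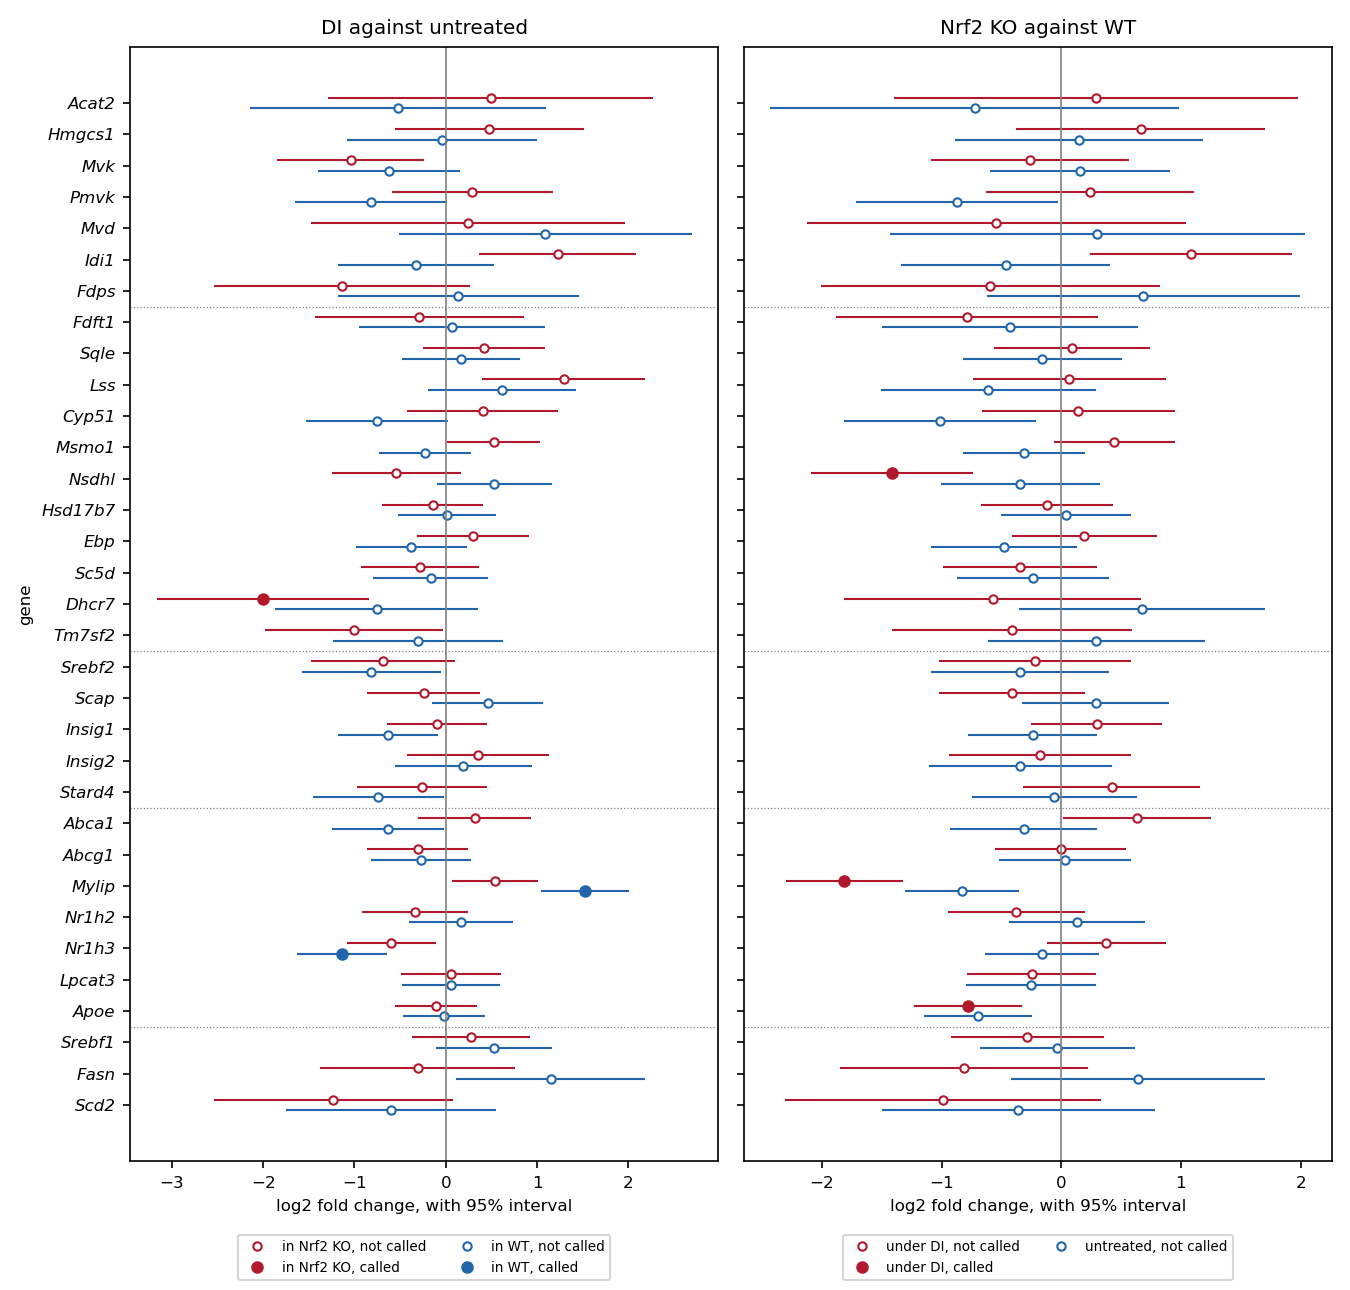
Log2 fold change of each of the 33 genes with its 95% interval. The left panel gives DI against untreated in Nrf2-/- (red) and wild-type cells (blue), and the right panel gives Nrf2-/- against wild type under DI (red) and untreated (blue). Filled points passed the edgeR test (adjusted p under 0.05): Dhcr7, Mylip and Nr1h3 on the left, and Nsdhl, Mylip and Apoe on the right. Intervals are wider for the synthesis enzymes than for the efflux genes.

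With all 8 libraries and the filter on low counts, none of the 5 sensing and transport genes passed in any comparison by edgeR or DESeq2. In wild-type DI cells 3 of them had an unadjusted edgeR p under 0.05, each with a value below 0. Over all genes 30.8% reached that p in either direction, and 1865 of 11079 did so with a value below 0. Srebf2 encodes the SREBP that drives the synthesis enzymes. It had 2.78 and 4.86 CPM in Nrf2-/- DI libraries, 5.34 and 3.73 CPM in wild-type DI libraries, 5.42 and 6.84 CPM in untreated Nrf2-/- libraries and 8.56 and 7.18 CPM in untreated wild-type libraries. DI libraries were below untreated ones in both genotypes. The log2 changes with DI were -0.69 ± 0.36 in Nrf2-/- and -0.81 ± 0.35 in wild-type cells (edgeR adjusted p = 0.249 and 0.133). Insig1, which retains SCAP and is itself an SREBP target, had 38.9 and 39.4 CPM in Nrf2-/- DI libraries, 30.8 and 32.9 CPM in wild-type DI libraries, 45.0 and 38.9 CPM in untreated Nrf2-/- libraries and 60.8 and 38.2 CPM in untreated wild-type libraries. Its log2 change with DI was -0.63 ± 0.25 in wild-type cells (edgeR adjusted p = 0.108). That value passed without untreated wild-type replicate 2 (-0.93, edgeR adjusted p = 0.0496) and after removal of a per-library trend with A-rich coding stretches (-0.79, edgeR adjusted p = 0.0472). Stard4, a sterol carrier and SREBP target, had 4.24 and 3.07 CPM in wild-type DI libraries and 5.68 and 6.34 CPM in untreated wild-type libraries, a log2 change of -0.74 ± 0.33 (edgeR adjusted p = 0.148). Insig2 and Scap spanned 14.9 to 36.1 CPM and 8.99 to 18.2 CPM, and in both genes the extremes included an untreated wild-type library.

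The calls kept under all 14 alternative fits were those of Mylip and Nr1h3. Both are listed with the efflux genes, and neither encodes an exporter. Mylip (chromosome 13, 45389742 to 45412022) had 357 and 364 CPM in Nrf2-/- DI libraries, 1429 and 1102 CPM in wild-type DI libraries, 257 and 239 CPM in untreated Nrf2-/- libraries and 467 and 413 CPM in untreated wild-type libraries. The 4 groups did not overlap. Mylip averaged 1266 ± 231 CPM in wild-type DI cells and 440 ± 38.5 CPM in untreated wild-type cells (SD, n = 2 each), a 2.88-fold rise with log2 change 1.52 ± 0.22 (edgeR adjusted p = 0.000792). In Nrf2-/- cells the DI change was 0.54 ± 0.22 and did not pass (edgeR adjusted p = 0.141). Under DI, Mylip was lower in Nrf2-/- than in wild-type cells by a log2 difference of -1.81 ± 0.22 (edgeR adjusted p = 0.000202). Both calls were kept in all 14 alternative fits. The DI effect differed by -0.98 ± 0.31 between Nrf2-/- and wild-type cells, which did not pass in edgeR (adjusted p = 0.0696) and passed in DESeq2 (adjusted p = 0.0261). It also passed in edgeR without wild-type DI replicate 2 (-1.18, adjusted p = 0.0346). Untreated, Mylip differed by -0.83 ± 0.22 between Nrf2-/- and wild-type cells, which did not pass in edgeR (adjusted p = 0.137) and passed in DESeq2 (adjusted p = 0.0322) and in edgeR without the filter on low counts (adjusted p = 0.0479).

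Nr1h3, which encodes LXRα (chromosome 2, 91184061 to 91202834), fell with DI in wild-type cells. It had 13.4 and 12.5 CPM in wild-type DI libraries and 25.4 and 31.2 CPM in untreated wild-type libraries, a log2 change of -1.14 ± 0.23 (edgeR adjusted p = 0.00558). The call was kept in all 14 alternative fits. In Nrf2-/- cells Nr1h3 had 17.5 and 16.0 CPM with DI and 24.5 and 26.2 CPM untreated. These did not overlap either, but the log2 change of -0.60 ± 0.22 did not pass (edgeR adjusted p = 0.116), nor did the difference between the 2 effects (0.54 ± 0.32, edgeR adjusted p = 0.294, 95% interval -0.15 to 1.23). Nr1h2, which encodes the second receptor LXRβ, ranged over 18.3 to 34.7 CPM and passed nowhere, with log2 changes with DI of -0.34 ± 0.27 in Nrf2-/- and 0.17 ± 0.26 in wild-type cells. Thus in wild-type DI cells Mylip was higher and Nr1h3, which encodes LXRα, was lower, while Nr1h2, which encodes LXRβ, did not pass.

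With all 8 libraries neither cholesterol exporter passed a test. Abca1 had 449 and 244 CPM in Nrf2-/- DI libraries, 229 and 217 CPM in wild-type DI libraries, 298 and 258 CPM in untreated Nrf2-/- libraries and 294 and 397 CPM in untreated wild-type libraries. The 2 Nrf2-/- DI libraries lay far apart. The log2 change with DI was 0.32 ± 0.28 in Nrf2-/- and -0.63 ± 0.28 in wild-type cells (edgeR adjusted p = 0.512 and 0.152), and the interaction was 0.95 ± 0.40 (edgeR adjusted p = 0.157). The interaction passed only without Nrf2-/- DI replicate 2 (1.33, edgeR adjusted p = 0.0421), the lower of those libraries, as did the difference between Nrf2-/- and wild-type cells under DI (1.01, edgeR adjusted p = 0.0276). Abcg1 had 202 and 308 CPM in Nrf2-/- DI libraries, 278 and 234 CPM in wild-type DI libraries, 357 and 274 CPM in untreated Nrf2-/- libraries and 293 and 325 CPM in untreated wild-type libraries. Its 95% interval for the DI change was -0.86 to 0.24 in Nrf2-/- and -0.82 to 0.28 in wild-type cells; both end below the log2 change of Mylip in wild-type cells. Lpcat3, a phospholipid-remodelling acyltransferase and LXR target, ranged over 23.2 to 36.2 CPM and passed nowhere.

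Apoe, whose protein carries cholesterol out of macrophages (chromosome 7, 19696109 to 19699188), was lower in Nrf2-/- cells under DI. It had 3507 and 2981 CPM in Nrf2-/- DI libraries, 5325 and 5832 CPM in wild-type DI libraries, 3455 and 3528 CPM in untreated Nrf2-/- libraries and 5571 and 5714 CPM in untreated wild-type libraries. All 4 Nrf2-/- libraries were below all 4 wild-type libraries. The log2 difference between Nrf2-/- and wild-type cells was -0.78 ± 0.21 under DI (edgeR adjusted p = 0.0201) and -0.69 ± 0.21 untreated (edgeR adjusted p = 0.20, DESeq2 adjusted p = 0.0861), and only the difference under DI passed. The DI changes were -0.11 ± 0.21 in Nrf2-/- and -0.02 ± 0.21 in wild-type cells, with 95% intervals of -0.56 to 0.34 and -0.47 to 0.43. The call under DI was kept in 10 of 14 alternative fits, and was lost with only the 4 DI libraries in the fit (adjusted p = 0.0795), without either Nrf2-/- DI library (0.0501 without replicate 1 and 0.103 without replicate 2) and with the A-rich trend removed (0.0714). Stromal markers moved with genotype as well. Their summed level was 42.9 to 43.6 CPM in Nrf2-/- DI, 103 to 113 CPM in wild-type DI, 46.1 to 47.8 CPM in untreated Nrf2-/- and 85.6 to 128 CPM in untreated wild-type libraries, and their part in the genotype differences of Apoe and Mylip was not tested.

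**Figure D4:**
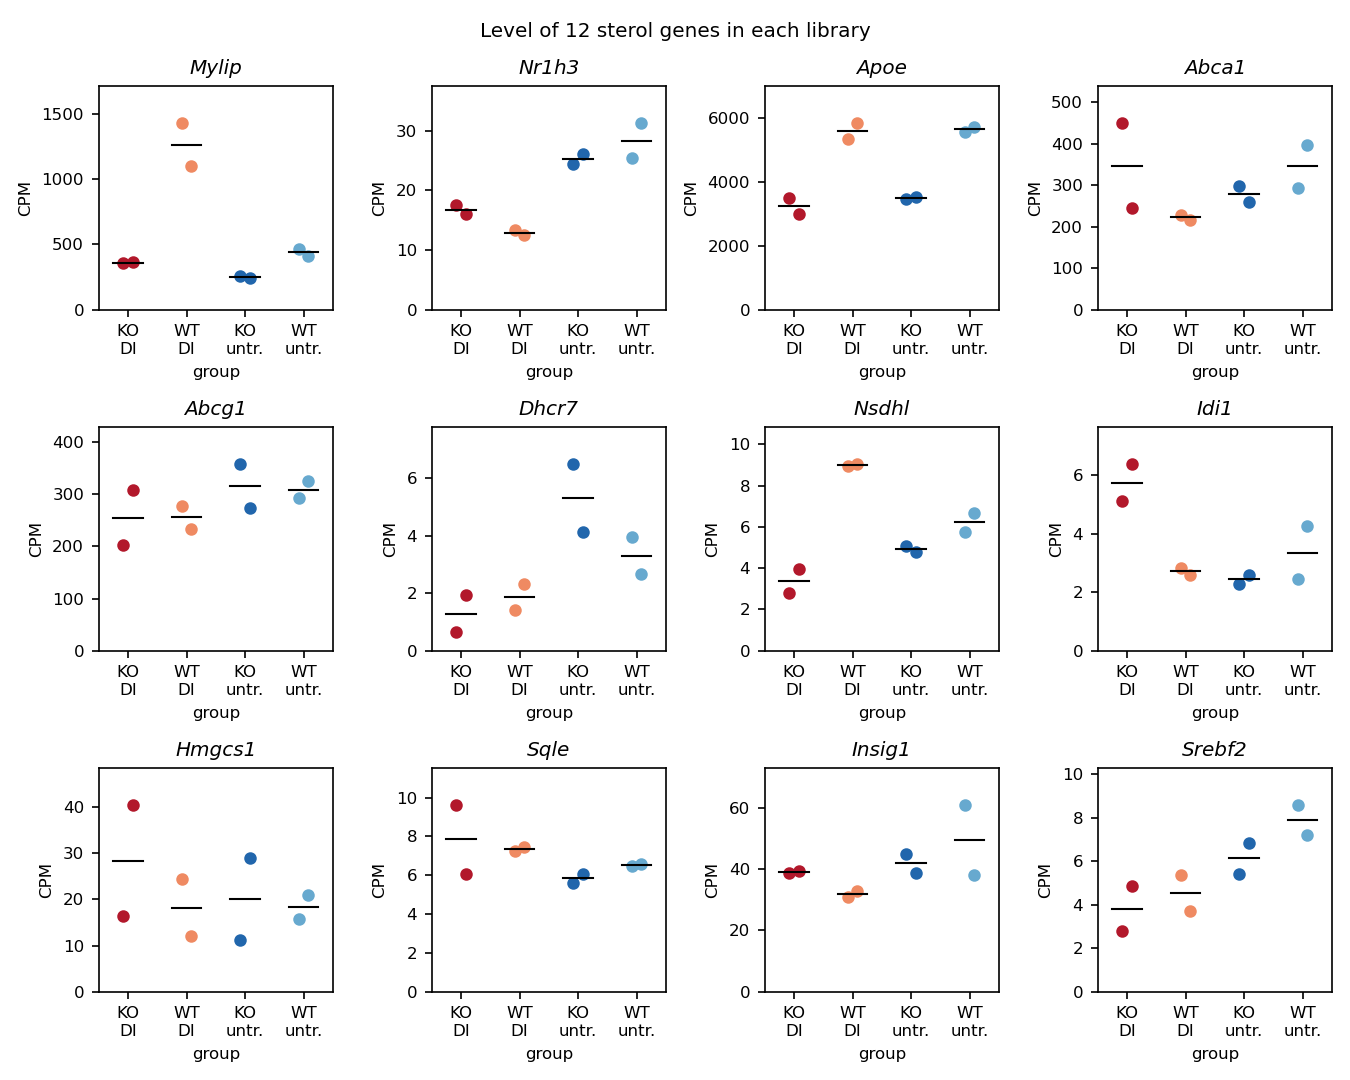
CPM of 12 genes in each library (points, 2 per group) with the group mean (line), in Nrf2-/- (KO) DI, wild-type (WT) DI, untreated Nrf2-/- and untreated wild-type cells. Mylip stands at 1102 and 1429 CPM in the wild-type DI libraries and at or below 467 CPM elsewhere, and Apoe separates by genotype.

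With the filter on low counts, none of the 3 genes of SREBP-1 and fatty acid synthesis passed in edgeR or DESeq2. DESeq2 gave no adjusted p for the interaction of Scd2. Srebf1, which encodes SREBP-1 and is induced by LXR through its SREBP-1c form, had 30.8 and 17 CPM in Nrf2-/- DI libraries, 32.7 and 25.7 CPM in wild-type DI libraries, 18 and 21.4 CPM in untreated Nrf2-/- libraries and 23.2 and 17.3 CPM in untreated wild-type libraries. In wild-type cells the DI libraries were above the untreated ones, with a log2 change of 0.53 ± 0.29 (edgeR adjusted p = 0.246). Fasn, fatty acid synthase, had 5.5 CPM in both wild-type DI libraries and 3.5 and 1.55 CPM in untreated wild-type libraries, a log2 change of 1.15 ± 0.48 (edgeR adjusted p = 0.123) on 13 to 59 counts per library. It passed only without the filter on low counts. Scd2, a stearoyl-CoA desaturase, held 6 to 60 counts per library.

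The medians of the synthesis and efflux arms were set side by side for each comparison. With DI the median log2 change was 0.27 for the 18 enzymes and -0.11 for the 7 efflux genes in Nrf2-/- cells, and -0.20 and -0.02 in wild-type cells. Over all tested genes these medians were 0.0046 and -0.017. Between Nrf2-/- and wild-type cells the medians were -0.03 for synthesis and -0.25 for efflux under DI, and -0.27 and -0.25 untreated, against 0.015 and -0.0081 over all genes, so that untreated both arms had medians below 0 by a similar amount. Within the synthesis arm, 10 of 18 values with DI were above 0 in Nrf2-/- cells and 7 of 18 in wild-type cells. Over all 11079 tested genes 5567 were above 0 in Nrf2-/- cells and 5410 in wild-type cells. By library, the mean log2 CPM of the enzymes was 2.28 and 2.46 in Nrf2-/- DI, 2.50 and 2.44 in wild-type DI, 2.44 and 2.40 in untreated Nrf2-/- and 2.58 and 2.63 in untreated wild-type cells (prior count 2). The untreated wild-type libraries were the highest. The mean of the efflux genes was 7.09 and 7.17 in Nrf2-/- DI, 7.46 and 7.46 in wild-type DI, 7.25 and 7.17 in untreated Nrf2-/- and 7.40 and 7.60 in untreated wild-type cells, so that Nrf2-/- libraries were below wild-type ones in either condition.

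The synthesis mean minus the efflux mean was -4.81 and -4.71 in Nrf2-/- DI, against -4.96 and -5.02 in wild-type DI libraries. It was -4.81 and -4.78 in untreated Nrf2-/- libraries and -4.82 and -4.97 in untreated wild-type libraries. Libraries of a group differed with a pooled SD of 0.0702. The Nrf2-/- libraries were above the wild-type ones under DI and narrowly above them untreated, and no test was made on a score over chosen genes. With Apoe and Mylip left out, the efflux genes summed to 710 and 629 CPM in Nrf2-/- DI, 576 and 534 CPM in wild-type DI, 736 and 616 CPM in untreated Nrf2-/- and 664 and 819 CPM in untreated wild-type libraries. The Nrf2-/- DI sums were above the wild-type DI sums, but the 2 genes left out were those called lower in that same comparison. Leaving them out therefore favours a higher Nrf2-/- sum. What remained was mostly Abca1 and Abcg1, neither of them called, and no conclusion is drawn from it.

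**Figure D5:**
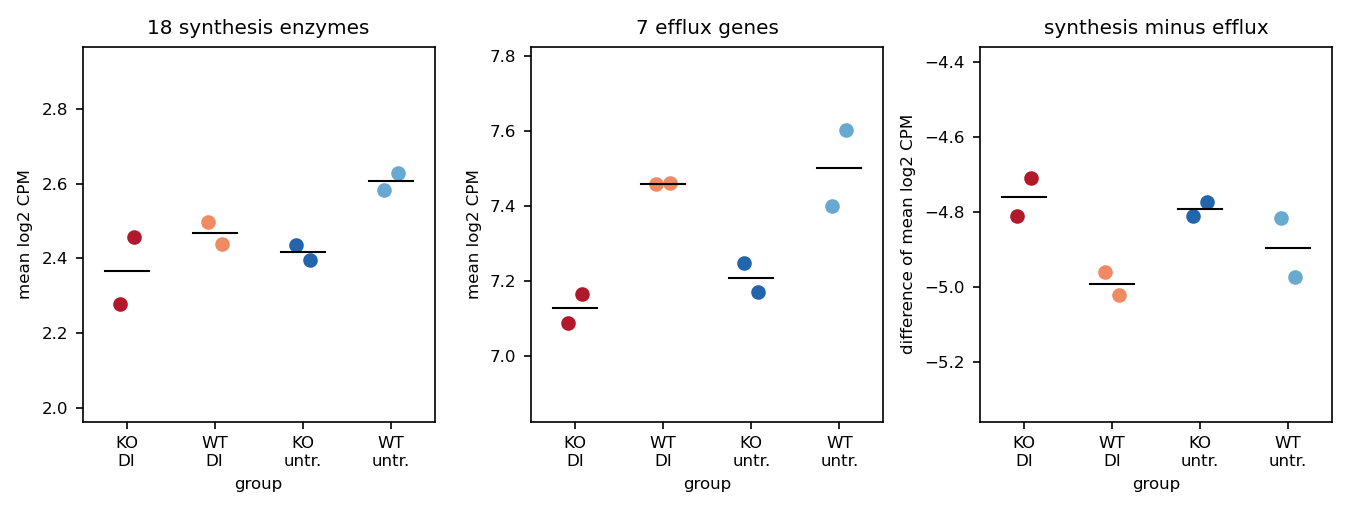
Mean log2 CPM of the 18 synthesis enzymes (left) and of the 7 efflux genes (middle), and the first minus the second (right), in each library (points, 2 per group) with the group mean (line). In the right panel the Nrf2-/- DI libraries lie at -4.81 and -4.71, and the wild-type DI libraries at -4.96 and -5.02.

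Of 41 further genes of sterol and lipid handling, 36 were tested. In wild-type DI cells 3 were higher and 2 lower, while 15.2% of all genes passed. Acss2, which makes acetyl-CoA from acetate, had 28.7 and 33.5 CPM in wild-type DI libraries and 1.49 and 1.55 CPM in untreated wild-type libraries, a log2 change of 4.35 ± 0.38 (edgeR adjusted p = 2.18e-05). In Nrf2-/- cells it had 1.39 and 1.62 CPM with DI and 0.525 and 2.06 CPM untreated, and the interaction of -4.26 ± 0.64 was the 1 call of the list there (edgeR adjusted p = 0.0029), while 7.55% of all genes passed. That count was 4 by DESeq2, with Npc2, Lipa and Smpdl3a added, and 7 without the filter on low counts. It was 0 without untreated Nrf2-/- replicate 2, 3 without Nrf2-/- DI replicate 2, 5 without wild-type DI replicate 2 and 2 without Nrf2-/- DI replicate 1. Cyp27a1, a sterol hydroxylase whose oxysterol products activate LXR, fell with DI by 1.42 in Nrf2-/- and by 2.04 in wild-type cells on the log2 scale (edgeR adjusted p = 0.044 and 0.00815). Its call in Nrf2-/- cells was lost without any 1 of 5 libraries: both untreated Nrf2-/-, both untreated wild-type and Nrf2-/- DI replicate 1. Its call in wild-type cells was lost without wild-type DI replicate 1. Lipa, the lysosomal lipase that frees cholesterol from its esters, and Npc1, which exports it from the lysosome, rose in wild-type cells by 0.94 and 0.81 on the log2 scale (edgeR adjusted p = 0.0257 and 0.0299). Acat1, a mitochondrial thiolase, fell by 0.75 (edgeR adjusted p = 0.0343). The 5 calls in wild-type cells became 2 without untreated wild-type replicate 1, and 3 without untreated wild-type replicate 2, either wild-type DI library or either untreated Nrf2-/- library. In Nrf2-/- cells DI raised Mid1ip1, a regulator of fatty acid synthesis, by 1.06 (edgeR adjusted p = 0.0257) and lowered the fatty acid desaturase gene Fads1 by a log2 change of -1.05 (edgeR adjusted p = 0.0463), beside Cyp27a1, while 8.48% of all genes passed. These 3 calls became 0 without either untreated Nrf2-/- library or Nrf2-/- DI replicate 1, and 1 without either untreated wild-type library.

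Under DI, 11 of the 36 tested genes of this further list were lower in Nrf2-/- than in wild-type cells and 3 higher, while 21.2% of all genes passed. Of the 17 tested genes of sterol handling and efflux, 9 were lower and 2 higher, while 9.74% of all genes passed as lower and 11.4% as higher. The stromal markers, at 42.9 to 43.6 CPM in Nrf2-/- DI and 103 to 113 CPM in wild-type DI libraries, were lower alongside the 9, and their part in this count was not tested. The 2 higher sterol handling genes were Ch25h, which makes an oxysterol, and Arl4c, an LXR target, by 3.19 and 1.32 on the log2 scale (edgeR adjusted p = 0.00121 and 0.00929). Among the 8 tested fatty acid genes of the list 1 was higher and 2 lower, and of these Acss2 differed by -4.36 (edgeR adjusted p = 1.6e-05). Lipa stood at 777 and 1042 CPM in Nrf2-/- DI, against 4701 and 3703 CPM in wild-type DI, a log2 difference of -2.21 (edgeR adjusted p = 0.000142). Apoc2, an apolipoprotein gene that lies in one cluster with Apoe, differed by -1.71 and Smpdl3a, an LXR target in macrophages, by -1.46 (edgeR adjusted p = 0.000301 and 0.000907). The 9 became 5 without Nrf2-/- DI replicate 1 and 6 without wild-type DI replicate 2. Of the 11 tested cholesterol and isoprenoid genes of the list, 0 differed in that comparison in edgeR. DESeq2 also called 0, and 0 had an unadjusted edgeR p under 0.05. Untreated, 0 of the 36 genes differed by edgeR, while 7 had an unadjusted edgeR p under 0.05, against 10.6% of all genes. All 7 were among the 17 sterol handling and efflux genes. DESeq2 called 3 (Rxra and Lipa lower, Ch25h higher), also all among those 17, against 1.72% of all genes.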

How the data were processed

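The authors deposited a table of whole-number read counts, 1 row per Ensembl gene and 1 column per library, which they had not normalized. Per the labels' protocols, libraries were primed with barcoded oligo-dT, so reads lie near 3′ ends, and no molecular identifier is described. Per the submitters' processing notes, the tools were STAR, HTSeq and DESeq2 and the build mm10, with no settings. The annotation release and strand setting of the counting are not given in the sources used here. Of 22165 genes, 21822 were matched to GENCODE M21 symbols.

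Groups came from the labels. Genes were filtered with filterByExpr (minimum count 10), scaled by TMM and tested with edgeR 4.0.16 in R 4.3.3 (robust quasi-likelihood fit of all 8 libraries, 1 mean per group, Benjamini-Hochberg adjusted p under 0.05). Errors beside log2 fold changes are standard errors, and intervals are 95%. DESeq2 1.42.0 is an alternative. The members, gene lists, arms and tests were chosen with earlier results of these data known. Values were given for every member called and for members central to each arm, and of the other pathway genes for the 4 called with the smallest p per comparison. Lss, Mvk, Pmvk, Cyp51, Msmo1, Stard4, Hsd17b7, Fasn, Acat1, Ch25h, Arl4c, Npc2 and Rxra were named after their values were seen. The alternatives were other size factors, DESeq2, no filter, a replicate block, 4-library fits and leaving out each library. A further one, chosen after seeing the data, removed a per-library trend with the highest number of A in 15 consecutive coding bases. That trend set Nrf2-/- and wild-type DI libraries apart. Genes with 12 A had a median log2 deviation from their mean of 0.24 and 0.18 in Nrf2-/- DI libraries. In wild-type DI libraries it was -0.28 and -0.17. For genes with 7 A it was -0.25 and -0.15 in Nrf2-/- DI and 0.17 and 0.12 in wild-type DI libraries. The untreated libraries lay between these, and the cause was not tested.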

Additional observations from a re-analysis of the deposited data

How the results depend on the processing

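Of the 33 genes, 1 was changed by DI in Nrf2-/- cells; 3 were without the filter on low counts, 0 with only the 4 libraries of the comparison and 0 with the A-rich trend removed. The interaction had 0 calls and 1 by DESeq2. Untreated, the genotypes had 0 calls, against 1 by DESeq2 and 1 without the filter. Leaving out 1 library gave 0 to 2 calls for DI in Nrf2-/- cells, 0 to 1 for the interaction, 1 to 3 for Nrf2-/- against wild type under DI and 0 to 0 untreated. The cause was not tested.

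The synthesis median minus the efflux median was 0.37 for DI in Nrf2-/- cells, -0.18 for DI in wild-type cells, 0.10 for the interaction, 0.22 for Nrf2-/- against wild type under DI and -0.02 untreated. With Insig1, Stard4 and Srebf2 added to synthesis it was 0.0092 for DI in Nrf2-/- cells, -0.29 for DI in wild-type cells, 0.28 for the interaction and 0.31 between genotypes under DI. With Srebf1, Fasn and Scd2 added to efflux it was 0.47 for DI in Nrf2-/- cells, 0.24 for the interaction and 0.30 between genotypes under DI. With the A-rich trend removed, an alternative chosen after seeing the data, it was -0.034 for DI in wild-type cells, -0.17 for the interaction, 0.0026 between genotypes under DI and -0.13 untreated. Leaving out 1 library moved it between 0.086 and 0.37 for DI in Nrf2-/- cells, -0.35 and 0.026 for DI in wild-type cells, -0.32 and 0.43 for the interaction, -0.13 and 0.38 between genotypes under DI, and -0.16 and 0.15 untreated. Its sign changed under at least 1 alternative in every comparison but DI in Nrf2-/- cells, and the cause was not tested. In Nrf2-/- cells the synthesis mean minus the efflux mean by library did not show that shift. It was -4.81 and -4.71 with DI and -4.81 and -4.78 untreated, which overlapped.

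Values that passed no test changed sign in places. With the A-rich trend removed, DI in Nrf2-/- cells gave 0.10 for Insig1 and 0.021 for Apoe, and DI in wild-type cells 0.21 for Hmgcs1. The interaction gave -0.17 for Sqle, 0.21 for Abcg1 and 0.16 for Apoe, the genotypes under DI -0.21 for Sqle and 0.20 for Abcg1, and untreated -0.0076 for Abcg1. Abcg1 between genotypes under DI was also 0.0025 with DESeq2's size factors in edgeR, 0.0026 in DESeq2 and 3.81e-06 with 4 libraries. Apoe with DI in wild-type cells was 0.0011 without the filter.

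Leaving out 1 library at a time also turned signs, over these ranges of log2 values. For DI in Nrf2-/- cells, it put Hmgcs1 at -0.32 to 1.34, Insig1 at -0.20 to 0.014, Abca1 at -0.19 to 0.70, Apoe at -0.23 to 0.0098 and Srebf1 at -0.22 to 0.64. For DI in wild-type cells, it put Hmgcs1 at -0.58 to 0.43, Idi1 at -0.66 to 0.14 and Apoe at -0.056 to 0.085. The interaction had Hmgcs1 at -0.28 to 1.38, Sqle at -0.11 to 0.55, Srebf2 at -0.33 to 0.47, Abcg1 at -0.37 to 0.24, Apoe at -0.21 to 0.028 and Srebf1 at -0.74 to 0.12. Between genotypes under DI, it put Hmgcs1 at -0.13 to 1.21, Sqle at -0.27 to 0.39, Srebf2 at -0.68 to 0.13, Abcg1 at -0.34 to 0.27 and Srebf1 at -0.77 to 0.087. Untreated, it put Hmgcs1 at -0.72 to 0.66, Idi1 at -0.79 to 0.0034, Insig1 at -0.54 to 0.13, Abcg1 at -0.16 to 0.21 and Srebf1 at -0.23 to 0.19.

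The labels do not say whether the replicate numbers pair the libraries. Deviations of same-numbered libraries from their group means correlated at -0.08 to 0.16 over all tested genes in the 6 pairs of groups. Over the 33 genes the correlations were -0.38 to 0.24. With 2 libraries per group these values cannot decide whether libraries were paired. The replicate block gave 1 call for DI in Nrf2-/- cells, 2 for DI in wild-type cells, 0 for the interaction, 3 between genotypes under DI and 0 untreated, and turned Hmgcs1 with DI in wild-type cells to 0.063 and untreated Srebf1 to 0.0065. With 2 libraries per group and few counts per enzyme, the median standard error of 0.38 to 0.40 limits what could be seen.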
